A study of Mus musculus with 12 samples.

Results

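The genes described here belong to the unfolded protein response, the ATF4 branch of the stress response and the chaperones of the endoplasmic reticulum (ER). The list holds 42 mouse genes, of which 35 were measured, among 9879 genes measured in all on 12 Illumina bead arrays. A gene was found by its symbol in the platform annotation, older aliases included, and counted as measured where 3 or more of the 12 arrays detected a probe for it (detection p-value under 0.05). Dnajb11, Sdf2l1, Ero1l and Atf6 had no named probe. The probes for Canx (calnexin), Ern1 (the sensor IRE1) and Psph (phosphoserine phosphatase) were detected on 2, 0 and 0 arrays and were left out. Just inside the limit, Aldh1l2 was detected on 4 arrays. Trib3 was detected on 10, and every other measured member on all 12.

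The cells came from wild-type male mouse embryonic stem cells of a single line, CCE (129/Sv). Embryoid bodies were grown for 4 days and sorted for Flk1, a receptor carried by vascular progenitors. The sorted cells grew for 4 days more on collagen IV, and CD31-positive cells, a gate for endothelium, were then sorted for RNA. There were 4 groups of 3 biological replicates: hypoxia (1.5 to 2% oxygen) with 4 µmol/l L-685.458, hypoxia alone, normoxia (21% oxygen) with 4 µmol/l L-685.458, and normoxia alone. L-685.458 inhibits gamma-secretase, the protease that releases the active part of Notch receptors. The sources used here do not say whether cells without inhibitor received a vehicle.

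Misfolded protein in the ER is sensed by IRE1, PERK and ATF6. IRE1 and ATF6 act through XBP1 and cleaved ATF6 to raise chaperones and degradation factors, while PERK phosphorylates the translation factor eIF2, which lowers protein synthesis in general and favours translation of ATF4. Other kinases respond to missing amino acids, haem deficit or viral RNA and act on the same step, so that ATF4 target genes (amino acid synthesis, aminoacyl-tRNA synthetases, CHOP, TRIB3) can change without the chaperones.

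Each array detected 13085 to 13901 probes. Signals are given as log2 of background-corrected, quantile-normalized intensity, and signals of different probes were not ranked against each other. The arrays numbered 3 stood apart in all 4 groups: on the first principal component, with 27.4% of the variance, they lay at -28.7 to -16.7 and the other arrays at -3.8 to 22.6. Within groups the SD of the log2 difference between replicates 1 and 2 was 0.217 to 0.24, and against replicate 3 it was 0.373 to 0.487, the highest being in hypoxia with inhibitor. Of 12 measured targets of the hypoxia-inducible factor (HIF), 4 rose in hypoxia with inhibitor against normoxia with inhibitor and 6 rose in hypoxia against normoxia, with 0 lower in either, and without replicate 3 of hypoxia with inhibitor 7 and 8 rose. The endothelial markers were detected for 9 of 10 genes listed, Cldn5 having no named probe, and so were 9 of 10 markers of undifferentiated stem cells.

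No member passed the test in any comparison (limma, two-sided, Benjamini-Hochberg adjusted p under 0.05 over all 14599 probes tested). In hypoxia with inhibitor against normoxia with inhibitor, 0 of 35 members passed, beside 0.536% of all genes called higher and 0.506% called lower. Before adjustment, 4 members were higher at a p under 0.05 (Atf3, Trib3, Ppp1r15a and Shmt2) and 0 were lower, against 6.22% and 6.18% of all genes. In hypoxia against normoxia, 0 members passed, where 0.688% of all genes were called higher and 0.466% lower. At an unadjusted p under 0.05, 3 members were higher (Pdia6, Sel1l and Ppp1r15a) and 0 lower, against 6.31% and 5.96%.

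For the inhibitor, no gene passed in either oxygen setting. In hypoxia, 0% of all genes and 0 members passed; 1 member (Trib3) was higher at an unadjusted p under 0.05 and 0 were lower, beside 1.86% and 2.03% of genes. In normoxia the calls were again 0% of all genes and 0 members. There, 0 members were under an unadjusted 0.05 in either direction, against 0.931% and 0.962% of genes. For the interaction of oxygen and inhibitor, calls were 0% and 0 members. At an unadjusted p under 0.05 there were 0 members, beside 0.901% of genes higher and 0.597% lower.

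As a list, the members had a median log2 change of 0.18 in hypoxia with inhibitor against normoxia with inhibitor, 0.06 in hypoxia against normoxia, 0.15 for the inhibitor in hypoxia and 0.06 for it in normoxia. The median over all genes was -0.01, -0.01, 0 and 0 in the same order. Without replicate 3 of hypoxia with inhibitor, the first median was -0.01 and that for the inhibitor in hypoxia was -0.02. In bulk RNA of sorted cells, more expressing cells and more RNA per cell cannot be told apart.

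**Figure D1:**
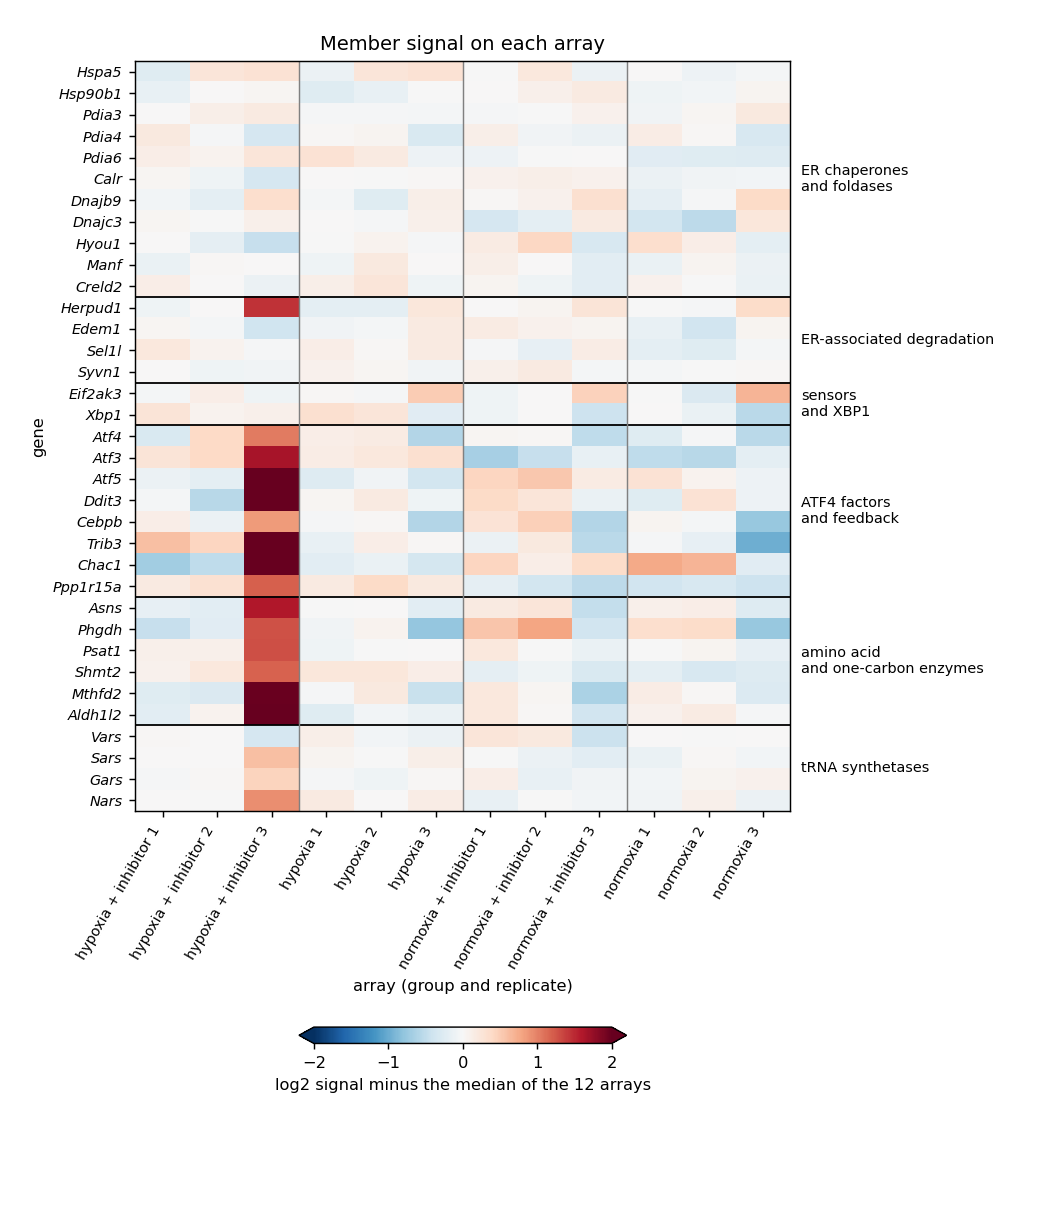
Each row is one of the 35 measured members and each column an array; colour is the log2 signal minus that gene's median over the 12 arrays, and the scale is clipped at both ends. The dark column in the lower part of the map is replicate 3 of hypoxia with inhibitor, on which 19 of 35 members had their highest signal.

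The map of member signals shows how uneven the list was. Its members were chosen with earlier results of these data known, so the shares that follow are description and no test. Replicate 3 of hypoxia with inhibitor held the highest of the 12 signals for 19 of 35 members (54.3%), against 19.1% of all genes. These were 8 of 8 ATF4-related factors, 6 of 6 amino acid and one-carbon enzymes, 3 of 4 tRNA synthetases, 1 of 4 degradation factors (Herpud1) and 1 of 11 chaperones (Hspa5). The same array held the lowest of the 12 signals for 3 of 11 chaperones (Pdia4, Calr and Hyou1; 27.3%), against 19.4% of all genes. The values below are therefore given array by array, for replicates 1, 2 and 3 in that order.

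Among the 11 ER chaperones and folding enzymes, changes stayed between -0.29 and 0.18 in hypoxia with inhibitor against normoxia with inhibitor and between -0.11 and 0.36 in hypoxia against normoxia, and none passed. Their medians were 0 and 0.09. Hspa5 encodes BiP, the main ER member of the HSP70 family and the classical marker of ER stress. Its signal was 8.36, 8.84 and 8.90 in hypoxia with inhibitor, 8.49, 8.85 and 8.89 in hypoxia, 8.60, 8.81 and 8.49 in normoxia with inhibitor, and 8.61, 8.50 and 8.57 in normoxia. All 4 groups overlapped, and replicate 3 of hypoxia with inhibitor exceeded the next array by 0.02. The change was 0.07 (SE 0.16, adjusted p = 0.921) with inhibitor, -0.03 without that array, and 0.18 (SE 0.16, adjusted p = 0.764) without inhibitor. Among the other chaperones the widest ranges over the 12 arrays were those of Hyou1 (6.81 to 7.69) and Dnajc3 (8.31 to 9.06).

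Hsp90b1 encodes GRP94, the HSP90 of the ER. It had 12.74, 12.90 and 12.93 in hypoxia with inhibitor, 12.65, 12.73 and 12.87 in hypoxia, 12.90, 12.98 and 13.07 in normoxia with inhibitor, and 12.80, 12.83 and 12.94 in normoxia. The groups overlapped, and the changes with oxygen were -0.12 and -0.11 with SE 0.11 each (adjusted p = 0.716 with inhibitor, 0.786 without).

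Pdia6, a disulfide isomerase of the ER, was chosen after its values were seen. It had 8.74, 8.68 and 8.84 in hypoxia with inhibitor, 8.89, 8.79 and 8.51 in hypoxia, 8.50, 8.60 and 8.61 in normoxia with inhibitor, and 8.38, 8.37 and 8.35 in normoxia. Every hypoxia array lay above every normoxia array at the same inhibitor setting, and the arrays of normoxia with inhibitor also lay above those of normoxia. The change in hypoxia against normoxia was 0.36 (SE 0.12, adjusted p = 0.218), and with inhibitor it was 0.18 (SE 0.12, adjusted p = 0.588).

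Calr encodes calreticulin, a calcium-binding lectin chaperone. Its signal was 10.64, 10.51 and 10.27 in hypoxia with inhibitor, 10.61, 10.59 and 10.62 in hypoxia, 10.69, 10.72 and 10.69 in normoxia with inhibitor, and 10.49, 10.53 and 10.54 in normoxia. With inhibitor the hypoxia arrays all lay below the normoxia arrays (-0.23, SE 0.11, adjusted p = 0.455, and -0.13 without replicate 3 of hypoxia with inhibitor), and without inhibitor they all lay above (0.09, SE 0.11, adjusted p = 0.845). The interaction was -0.31 (SE 0.15, adjusted p = 1).

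The upstream sequences of 4 chaperone genes are shown because they carry the ER stress element, the site through which ATF6 and XBP1 are known to act on chaperone genes. It was searched on both strands as CCAAT and CCACG with 9 bases between, in the 250 bases before each start in RefSeq (GRCm38.p6). Promoters were found for 30 of the 35 measured members. The element stood in 6 of 9 chaperone genes with a promoter and in 1 of 4 degradation genes (Syvn1), in 0 of 13 ATF4-related factor and amino acid genes, and in 0.113% of all promoters. In the sequences below, read along each gene's strand, capitals mark the match. They lie at chr2:34772010-34772058 (plus strand) for Hspa5, chr10:86705518-86705671 (minus strand, 2 matches) for Hsp90b1, chr12:17266476-17266524 (plus strand) for Pdia6 and chr15:88819505-88819553 (plus strand, match on the opposite strand) for Creld2, which encodes an ER protein with a folding role.
Hspa5: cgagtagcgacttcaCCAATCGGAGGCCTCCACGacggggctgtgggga
Hsp90b1: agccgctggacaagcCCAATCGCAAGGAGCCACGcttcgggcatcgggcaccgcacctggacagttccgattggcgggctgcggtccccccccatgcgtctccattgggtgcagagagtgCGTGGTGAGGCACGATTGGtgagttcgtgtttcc
Pdia6: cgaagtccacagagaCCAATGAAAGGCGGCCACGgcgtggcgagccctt
Creld2: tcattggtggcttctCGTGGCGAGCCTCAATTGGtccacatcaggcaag
The related UPR element TGACGTGG was found in 0 of the 30 members and in 0.563% of all promoters. A match describes the letters only, and binding was not measured.

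Of the 4 degradation factors none passed. Herpud1 encodes an ER membrane protein that helps move substrates to the proteasome. It had 10.34, 10.43 and 11.87 in hypoxia with inhibitor, 10.24, 10.23 and 10.66 in hypoxia, 10.43, 10.48 and 10.69 in normoxia with inhibitor, and 10.42, 10.41 and 10.80 in normoxia. Replicate 3 was the highest of its group in all 4 groups, by the widest margin in hypoxia with inhibitor, where it stood 2.82-fold above the mean of its group mates. A second Herpud1 probe also had its highest signal on that array, 11.86 against 10.15 and 10.21. The change in hypoxia with inhibitor against normoxia with inhibitor was 0.34 (SE 0.33, adjusted p = 0.746), and -0.15 without that array.

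Edem1, a lectin that hands misfolded glycoproteins to degradation, behaved otherwise. Its signal was 6.92, 6.84 and 6.49 in hypoxia with inhibitor, 6.82, 6.85 and 7.06 in hypoxia, 7.05, 6.97 and 6.94 in normoxia with inhibitor, and 6.74, 6.50 and 6.94 in normoxia. Replicate 3 of hypoxia with inhibitor was the lowest array. The inhibitor change in normoxia was 0.26 (SE 0.15, adjusted p = 1), and hypoxia with inhibitor against normoxia with inhibitor was -0.24 (SE 0.15, adjusted p = 0.578), and -0.11 without that array. Sel1l and Syvn1, which form the ligase of ER-associated degradation, had log2 changes of 0.10 and -0.13 in that comparison and of 0.27 and 0.02 in hypoxia against normoxia, all with adjusted p of 0.39 or more. The dimmer Sel1l probes overlapped between hypoxia and normoxia. The brighter of these had 7.80, 7.89 and 8.37 against 7.92, 7.41 and 8.19, and was highest on replicate 3 of hypoxia with inhibitor (8.39). The dimmest had 5.50, 5.08 and 5.80 against 5.14, 5.34 and 6.04.

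Of the sensors and their factors, Eif2ak3 (PERK) and Xbp1 were measured. Xbp1 had 12.38, 12.20 and 12.23 in hypoxia with inhibitor, 12.45, 12.37 and 11.91 in hypoxia, 12.05, 12.13 and 11.71 in normoxia with inhibitor, and 12.13, 12.00 and 11.59 in normoxia. With inhibitor the hypoxia arrays lay above all normoxia arrays, and without it the groups overlapped. The changes were 0.31 (SE 0.18, adjusted p = 0.563) and 0.34 (SE 0.18, adjusted p = 0.512). Spliced and unspliced Xbp1 RNA were not separated here. Eif2ak3 had -0.12 with inhibitor (-0.07 without replicate 3 of hypoxia with inhibitor) and 0.04 without inhibitor, with adjusted p of 0.899 and 0.975.

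The 8 ATF4-related factors and feedback genes had median changes of 0.48 in hypoxia with inhibitor against normoxia with inhibitor, 0.12 in hypoxia against normoxia, 0.55 for the inhibitor in hypoxia and 0.15 for it in normoxia. Without replicate 3 of hypoxia with inhibitor, the first was 0.07 and the inhibitor in hypoxia 0.09. Atf4 encodes the factor itself, which is controlled mainly at translation. It had 7.07, 7.78 and 8.42 in hypoxia with inhibitor, 7.52, 7.54 and 6.79 in hypoxia, 7.42, 7.41 and 6.87 in normoxia with inhibitor, and 7.14, 7.35 and 6.84 in normoxia. Replicate 3 was the highest array of hypoxia with inhibitor and the lowest of each of the other groups. The change with oxygen was 0.52 (SE 0.32, adjusted p = 0.575) with inhibitor, 0.19 without replicate 3 of hypoxia with inhibitor, and 0.17 (SE 0.32, adjusted p = 0.904) without inhibitor.

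Chac1 encodes an enzyme that breaks down glutathione and is a late target of the ATF4 and CHOP axis. It had 8.09, 8.28 and 12.19 in hypoxia with inhibitor, 8.57, 8.65 and 8.43 in hypoxia, 9.22, 8.92 and 9.15 in normoxia with inhibitor, and 9.55, 9.47 and 8.56 in normoxia. Within hypoxia with inhibitor, replicates 1 and 2 were the lowest of the 12 arrays and replicate 3 was the highest. The deposited intensities there were 274.6, 310.7 and 4650.7, so the gap stands before any normalization. Replicate 3 was 16.1-fold above its group mates, and its margin of 2.64 over the next highest array was the largest of the 9879 genes, tied at this rounding with Nupr1, an ATF4 target outside the list.

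For Chac1 the direction of the comparisons turns on that array. Hypoxia with inhibitor against normoxia with inhibitor was 0.42 (SE 0.81, adjusted p = 0.891) with it and -0.91 (SE 0.25, adjusted p = 0.125) without it. Hypoxia against normoxia was -0.64 (SE 0.81, adjusted p = 0.846). The inhibitor in hypoxia was 0.97 (SE 0.81, adjusted p = 0.998), and -0.37 without the array.

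Ddit3 encodes CHOP, a factor tied to prolonged stress and cell death. Its signal was 7.56, 7.05 and 10.03 in hypoxia with inhibitor, 7.65, 7.79 and 7.52 in hypoxia, 7.98, 7.85 and 7.47 in normoxia with inhibitor, and 7.36, 7.89 and 7.50 in normoxia. Only replicate 3 of hypoxia with inhibitor lay above 8, at 6.62-fold over its mates, and a second probe gave 9.88 there against 7.22 and 6.86. Changes with oxygen were 0.45 (SE 0.56, adjusted p = 0.821) with inhibitor, -0.46 without the array, and 0.07 (SE 0.56, adjusted p = 0.985) without inhibitor.

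Trib3 encodes a pseudokinase that binds ATF4 and dampens its activity. It had 6.02, 5.85 and 8.09 in hypoxia with inhibitor, 5.27, 5.55 and 5.45 in hypoxia, 5.31, 5.62 and 4.88 in normoxia with inhibitor, and 5.39, 5.26 and 4.45 in normoxia. Unlike Chac1 and Ddit3, all 3 arrays of hypoxia with inhibitor lay above all other arrays, with replicate 3 at 4.44-fold over its mates. The signals are near the lowest that the arrays detect (5.08 to 5.24), so changes are compressed. Trib3 had the largest member changes in hypoxia with inhibitor against normoxia with inhibitor, 1.38 (SE 0.48, adjusted p = 0.271), and for the inhibitor in hypoxia, 1.23 (SE 0.48, adjusted p = 0.998). Without replicate 3 they were 0.67 (adjusted p = 0.352) and 0.51 (adjusted p = 1).

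Atf5 encodes a factor translated like ATF4 and linked to mitochondrial stress. It had 8.33, 8.26 and 11.18 in hypoxia with inhibitor, 8.20, 8.39 and 8.09 in hypoxia, 8.88, 9.0 and 8.62 in normoxia with inhibitor, and 8.75, 8.52 and 8.35 in normoxia. Replicate 3 of hypoxia with inhibitor was 7.39-fold above its mates, and those mates lay below all normoxia arrays with inhibitor. The inhibitor in hypoxia gave 1.04 (SE 0.58, adjusted p = 0.998), and 0.07 without the array.

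Cebpb encodes C/EBP-beta, a partner of ATF4 on DNA. It had 10.77, 10.52 and 11.49 in hypoxia with inhibitor, 10.62, 10.66 and 10.06 in hypoxia, 10.91, 11.11 and 10.06 in normoxia with inhibitor, and 10.69, 10.60 and 9.88 in normoxia. Replicate 3 was again the highest in hypoxia with inhibitor and the lowest in the other groups. The inhibitor change in normoxia was 0.30 (SE 0.33, adjusted p = 1).

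**Figure D2:**
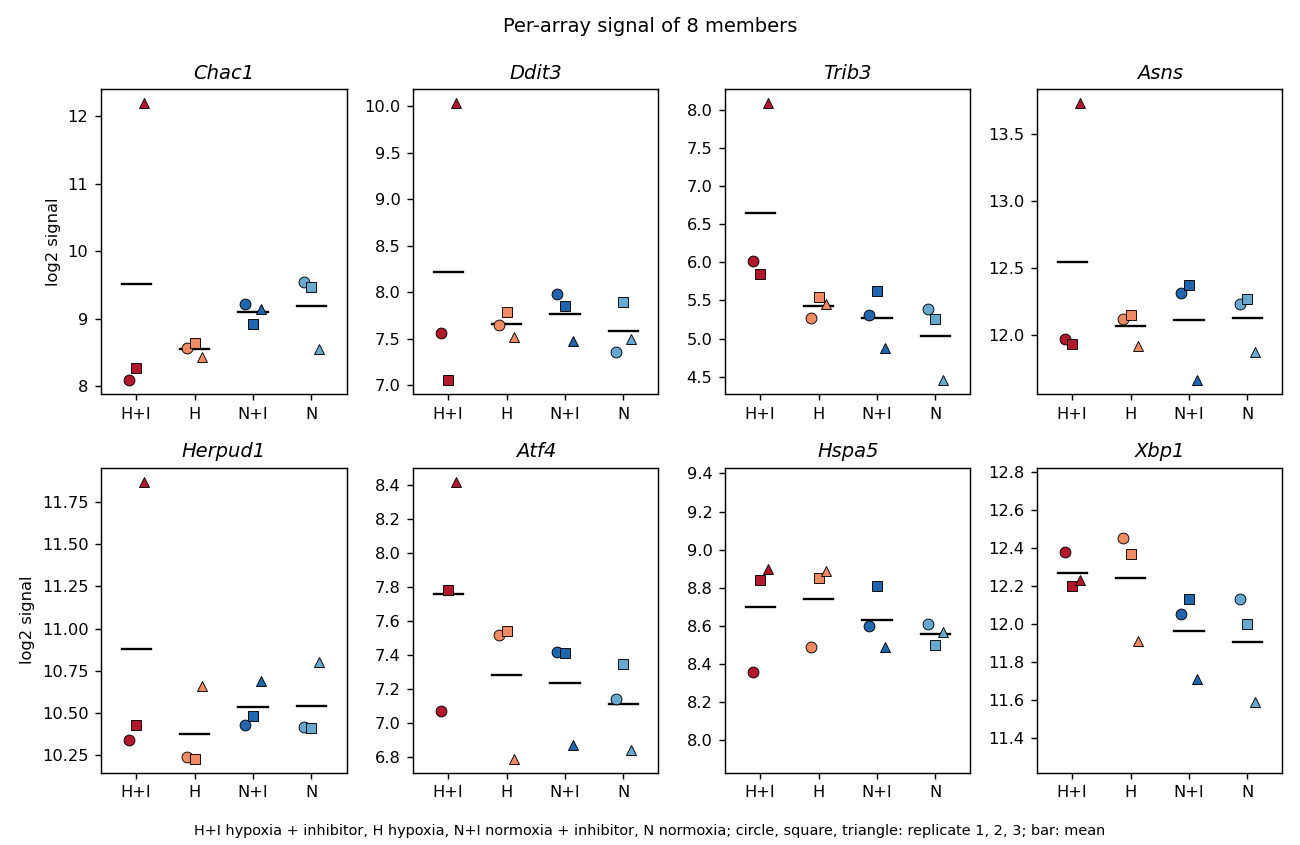
Log2 signal of 8 members on each array, 1 panel per gene, with groups from hypoxia + inhibitor on the left to normoxia on the right; symbols mark replicates and bars group means. For Chac1, Ddit3, Trib3, Asns, Herpud1 and Atf4 the triangle of hypoxia + inhibitor is the highest point, while Hspa5 and Xbp1 show no array so far above the rest.

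The 6 measured amino acid and one-carbon enzymes had a median change of 0.54 in hypoxia with inhibitor against normoxia with inhibitor and 0.51 for the inhibitor in hypoxia, and -0.08 and -0.07 without replicate 3 of hypoxia with inhibitor. Asns, asparagine synthetase, had 11.97, 11.93 and 13.73 in hypoxia with inhibitor, 12.12, 12.15 and 11.92 in hypoxia, 12.31, 12.37 and 11.66 in normoxia with inhibitor, and 12.23, 12.27 and 11.87 in normoxia. The plot of 8 members shows the same separation of one point. That array was 3.43-fold above its mates, and 2 further Asns probes were highest on it. The oxygen change was 0.43 (SE 0.39, adjusted p = 0.736) with inhibitor, and it turned to -0.17 without that array. Without inhibitor it was -0.06 (SE 0.39, adjusted p = 0.979).

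Phgdh and Psat1 encode enzymes of serine synthesis. Phgdh had 6.97, 7.21 and 8.70 in hypoxia with inhibitor, 7.36, 7.50 and 6.66 in hypoxia, 7.99, 8.22 and 7.05 in normoxia with inhibitor, and 7.77, 7.79 and 6.67 in normoxia. Replicate 3 lay lowest in all groups but hypoxia with inhibitor, where it lay highest, and all groups overlapped. Phgdh had the largest inhibitor change in normoxia among members, 0.34 (SE 0.47, adjusted p = 1). Psat1 had 10.64, 10.64 and 11.83 in hypoxia with inhibitor, 10.45, 10.53 and 10.54 in hypoxia, 10.74, 10.53 and 10.40 in normoxia with inhibitor, and 10.52, 10.59 and 10.37 in normoxia. Apart from replicate 3 of hypoxia with inhibitor, the Psat1 arrays spanned 10.37 to 10.74. Its oxygen change was 0.48 (SE 0.26, adjusted p = 0.513) with inhibitor, 0.08 without that array, and 0.01 (SE 0.26, adjusted p = 0.994) without inhibitor.

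Aldh1l2 and Mthfd2 encode mitochondrial folate enzymes. Aldh1l2 had 4.85, 5.13 and 7.46 in hypoxia with inhibitor, 4.82, 5.0 and 4.93 in hypoxia, 5.27, 5.09 and 4.67 in normoxia with inhibitor, and 5.15, 5.23 and 5.03 in normoxia. It was detected on 1 of 3 arrays of hypoxia with inhibitor, 0 of 3 of hypoxia, 1 of 3 of normoxia with inhibitor and 2 of 3 of normoxia, so most of its values are near background. Against the lowest signal detected on the hypoxia arrays, the mean of hypoxia with inhibitor was 1.58-fold higher. That figure is not a lower bound, because only replicate 3 of hypoxia with inhibitor detected the gene. The undetected arrays of that group were averaged as measured. The fitted change for the inhibitor in hypoxia was 0.89 (adjusted p = 0.998) with replicate 3 and 0.07 without it. The fitted change in hypoxia with inhibitor against normoxia with inhibitor was 0.80 (SE 0.51, adjusted p = 0.594), and -0.03 without replicate 3. Mthfd2, chosen after its values were seen, had 7.29, 7.24 and 9.50 in hypoxia with inhibitor and 6.89 to 7.74 on the other 9 arrays.

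Of the 4 tRNA synthetases, Sars, Gars and Nars were highest on replicate 3 of hypoxia with inhibitor, at 1.5-fold, 1.35-fold and 1.9-fold over its mates, and Vars was not. Their changes in hypoxia with inhibitor against normoxia with inhibitor were 0.32, 0.17 and 0.38, and -0.10 for Vars, with adjusted p of 0.455 or more. Without that array they were 0.12, 0.03 and 0.07, and 0.01 for Vars.

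The sequences below are shown for 4 genes that were high on that array and carry the C/EBP-ATF response element, the site that ATF4 binds with C/EBP partners. It was searched as TGATGNAA on both strands of the same 250 bases and stood in 5 of the 30 members (Asns, Atf3, Chac1, Gars and Herpud1) and in 3.45% of all promoters. Among the 13 ATF4-related factor and amino acid genes with a promoter it stood in 3, and in 0 of 9 chaperone genes. Capitals mark it, and in Herpud1 they also mark the second form of the ER stress element (ATTGG and CCACG with 1 base between), found in Herpud1 alone among members and in 0.0304% of all promoters. The stretches lie at chr2:119351029-119351076 (plus strand) for Chac1, chr6:7693210-7693252 (minus strand) for Asns, chr1:191183416-191183463 (minus strand) for Atf3 and chr8:94386302-94386402 (plus strand) for Herpud1. In Chac1, Atf3 and Herpud1 the C/EBP-ATF match reads on the opposite strand.
Chac1: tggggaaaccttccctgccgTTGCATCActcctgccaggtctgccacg
Asns: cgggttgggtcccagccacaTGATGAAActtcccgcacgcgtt
Atf3: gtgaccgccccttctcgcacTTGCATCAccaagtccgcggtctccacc
Herpud1: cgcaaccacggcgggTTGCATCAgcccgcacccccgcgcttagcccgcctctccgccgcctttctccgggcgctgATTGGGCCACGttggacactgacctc
The hypoxia response core ACGTG stood in 8 of the 30 members and in 16.6% of all promoters, among them Hspa5, Pdia6, Ppp1r15a and Asns.

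Set against its group mates, replicate 3 of hypoxia with inhibitor had a median log2 deviation of 1.74 for the ATF4-related factors, 1.69 for the amino acid enzymes and 0.51 for the tRNA synthetases. The deviation was 0.08 for the chaperones, -0.10 for the degradation factors, -0.10 for Eif2ak3 and Xbp1, and -0.01 over all genes. The array exceeded every other array by more than 1 on the log2 scale for 10 of 35 members (28.6%), against 0.617% of all genes. This too is description and no test. Members high on replicate 3 in hypoxia with inhibitor but low on replicate 3 in each of the other 3 groups numbered 9 of 35 (25.7%), against 10.5% of genes, among them 5 of 8 ATF4-related factors.

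Other genes also stood apart on that array. The array and the lists were singled out with earlier results of these data known, so the shares here are description and no test. Of 23 measured further ATF4 target and stress response genes, 15 stood more than 1 above the mates on the log2 scale (65.2%, against 2.15% of all genes). Among them were Slc6a9 (a glycine transporter) at 8.57-fold, Nupr1 at 7.1-fold and Gpt2 (an alanine transaminase) at 5.49-fold. Of 9 measured stem cell markers, 8 stood more than 1 below the mates (88.9%, against 2.13% of all genes). Their summed linear signal was 6876 and 6660 on replicates 1 and 2 and 1897 on replicate 3. By replicate it was 8644, 10121 and 9452 in hypoxia, 19793, 19290 and 2882 in normoxia with inhibitor, and 22937, 22729 and 10042 in normoxia. Replicate 3 thus lay below its mates in both normoxia groups too, and between them in hypoxia. Of 15 HIF targets listed and 12 measured, 3 stood more than 1 below the mates (Pdk1, Slc16a3 and Adm) and 1 more than 1 above (Vegfa).

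Summed over 9 endothelial markers, replicate 3 of hypoxia with inhibitor had 51029 and its mates 63996 and 64126. The other groups had 62968 to 80490 in hypoxia, 57039 to 74045 in normoxia with inhibitor and 62457 to 78465 in normoxia. Replicate 3 gave each of these high ends. For 9 of 12 blood cell markers replicate 3 of hypoxia with inhibitor had 7395 and its mates 10992 and 10687. The other groups had 7734 to 9925 in hypoxia, 7923 to 9888 in normoxia with inhibitor and 7795 to 9381 in normoxia. Each of these low ends was again replicate 3. Ptprc, Tyrobp and Myb were not detected on enough arrays to be measured. Of the endoderm markers 2 of 9 were measured, at 1818 with mates at 1223 and 1391. The other groups had 1338 to 2020 in hypoxia, 924 to 1782 in normoxia with inhibitor and 1037 to 2060 in normoxia. Each high end was replicate 3, which was thus the highest array of every group. Afp, Ttr, Apoa1, Foxa2 and Rbp4 were likewise detected on too few arrays, and Cubn and Apob had no named probe. Of the mural cell markers 4 of 8 were measured, at 68324 with mates at 63601 and 67635, against 46036 to 69488 in hypoxia, 66090 to 69786 in normoxia with inhibitor and 59697 to 69225 in normoxia. Acta2, at a log2 signal of 15.47 to 16.06, makes up most of that sum. On the log2 scale Tagln stood 0.74 above the mates, Pdgfrb 0.57, Des 0.09 and Acta2 0.05. The array held the highest of the 12 signals for 2 of the 4 (50%), Tagln among them, against 19.1% of all genes. All 4 mural markers (100%) were high on replicate 3 in hypoxia with inhibitor and low on replicate 3 in each other group, against 25.7% of members and 10.5% of all genes. Cnn1, Myh11 and Rgs5, and Fgf4 among the stem cell markers, were detected on too few arrays, and Myl9 had no named probe. The part of these shifts in the member values was not tested. The array detected 13287 probes at a mean intensity of 564.6, within the range of the other arrays (13085 to 13901 and 522.3 to 628.6).

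**Figure D3:**
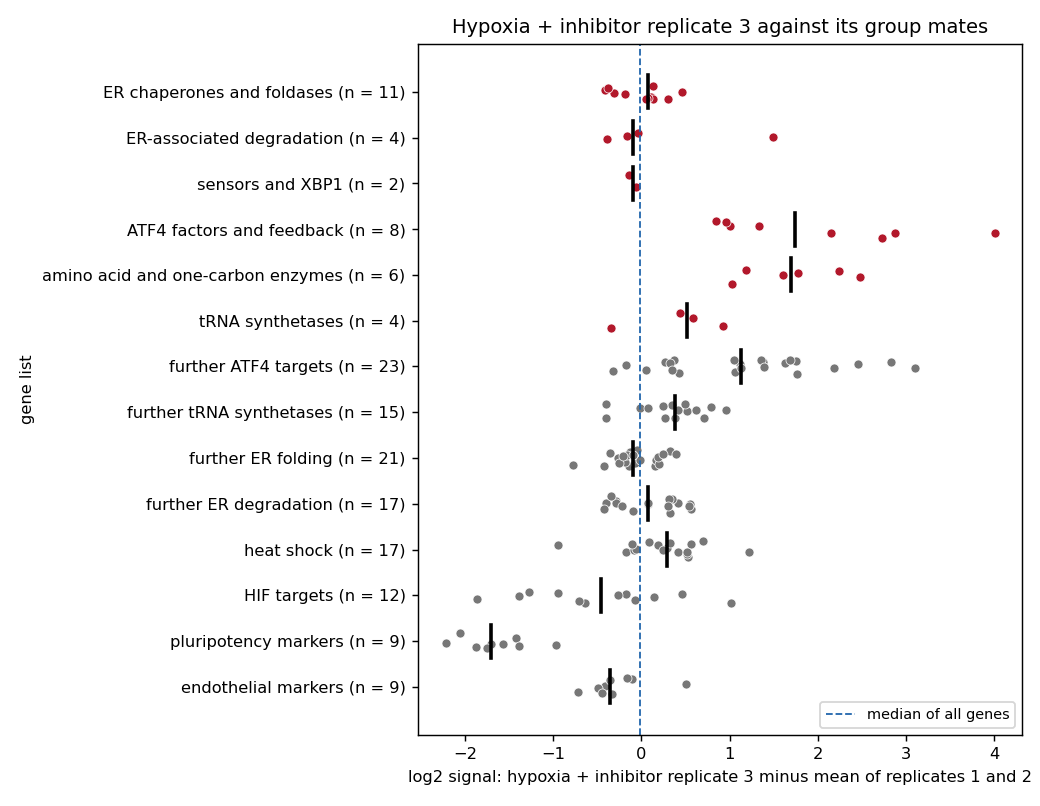
Log2 signal on replicate 3 of hypoxia + inhibitor minus the mean of replicates 1 and 2; each point is a gene, red for members by role and grey for the further gene lists and markers, with black bars at list medians and a dashed line at the median of all genes. The ATF4-related factors (1.74) and amino acid enzymes (1.69) lie to the right of the line, the chaperones (0.08) on it and the pluripotency markers to the left.

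Some members stood higher in hypoxia on every array. The share of all genes with every hypoxia array above every normoxia array was not counted, and shares by comparison are given below. Ppp1r15a encodes GADD34, which directs the phosphatase that reverses eIF2 phosphorylation. It had 9.22, 9.35 and 10.24 in hypoxia with inhibitor, 9.22, 9.42 and 9.23 in hypoxia, 8.86, 8.67 and 8.51 in normoxia with inhibitor, and 8.65, 8.72 and 8.62 in normoxia. All 6 hypoxia arrays lay above all 6 normoxia arrays. The change was 0.92 (SE 0.22, adjusted p = 0.0884) with inhibitor and 0.62 (SE 0.22, adjusted p = 0.27) without. In the fit without replicate 3 of hypoxia with inhibitor it rose, by 0.60 (SE 0.13, adjusted p = 0.0452) with inhibitor and 0.62 (SE 0.11, adjusted p = 0.0209) without.

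Atf3 encodes a stress-induced repressor and activator of the same family as ATF4. Its signal was 8.81, 8.94 and 10.20 in hypoxia with inhibitor, 8.70, 8.76 and 8.86 in hypoxia, 7.88, 8.08 and 8.39 in normoxia with inhibitor, and 8.04, 7.99 and 8.35 in normoxia. Here too every hypoxia array lay above every normoxia array, and replicate 3 was the highest of each group. The change was 1.20 (SE 0.30, adjusted p = 0.101) with inhibitor and 0.65 (SE 0.30, adjusted p = 0.423) without. It passed with inhibitor when the replicate number was a block (adjusted p = 0.0293), the only member of 35 to do so, where 1.08% of all genes were called higher and 0.941% lower. Without replicate 3 of hypoxia with inhibitor it was 0.76 (SE 0.16, adjusted p = 0.0499) with inhibitor, at the edge of the threshold, and 0.65 (SE 0.15, adjusted p = 0.0503) without, just outside it.

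Shmt2 encodes the mitochondrial enzyme that splits serine to feed the folate cycle. It had 8.16, 8.28 and 9.25 in hypoxia with inhibitor, 8.30, 8.30 and 8.21 in hypoxia, 7.89, 7.99 and 7.77 in normoxia with inhibitor, and 7.88, 7.75 and 7.82 in normoxia. The hypoxia arrays again lay above all normoxia arrays. A second, dimmer probe had its highest signal on replicate 3 of hypoxia with inhibitor (7.41), with 5.97 to 6.70 elsewhere and no such gap by oxygen. The change was 0.68 (SE 0.23, adjusted p = 0.243) with inhibitor and 0.45 (SE 0.23, adjusted p = 0.475) without. In the fit without that array it was 0.34 (SE 0.11, adjusted p = 0.194) with inhibitor and rose by 0.45 (SE 0.10, adjusted p = 0.0404) without.

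**Figure D4:**
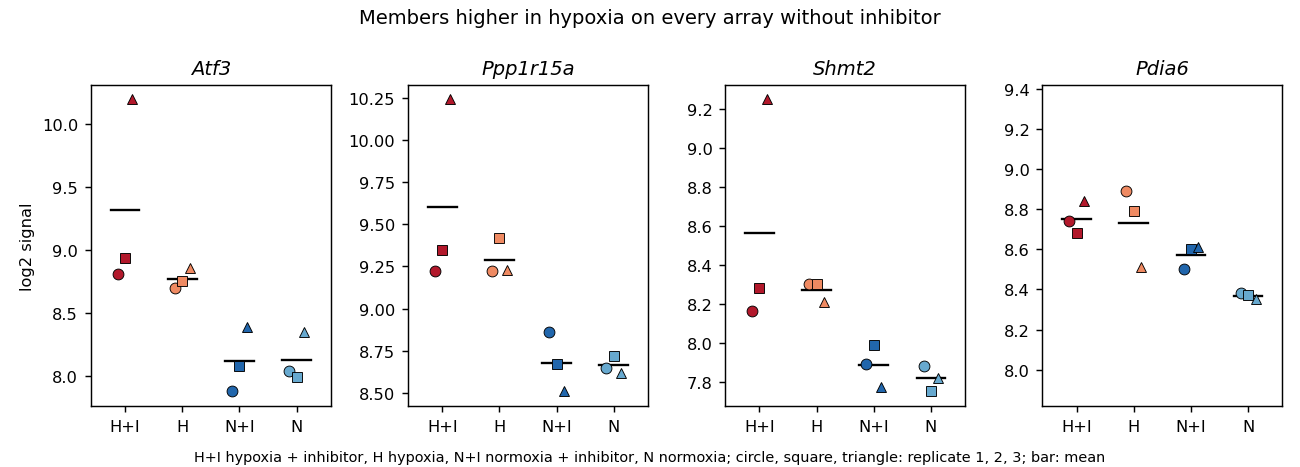
Log2 signal of Atf3, Ppp1r15a, Shmt2 and Pdia6 on each array, with groups from hypoxia + inhibitor on the left to normoxia on the right, symbols for replicates and bars for group means. For each gene the hypoxia arrays lie above the normoxia arrays of the same inhibitor setting.

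In that fit 2 of 35 members passed in hypoxia with inhibitor against normoxia with inhibitor (Atf3 and Ppp1r15a), where 1.38% of all genes were called higher and 0.648% lower. In hypoxia against normoxia 2 passed as well (Ppp1r15a and Shmt2), where 1.64% of all genes were called higher and 0.921% lower. The comparisons share no arrays, but they share the estimate of the spread, and the SE of Ppp1r15a without inhibitor was 0.22 with the array and 0.11 without it. Groups that did not overlap, over all arrays, numbered 7 members higher and 2 lower with inhibitor (7.47% and 8.9% of all genes), and 6 higher and 1 lower without (10.2% and 10.9%). For the inhibitor in hypoxia they were 3 higher and 0 lower (3.9% and 4.93%), and in normoxia 2 higher and 0 lower (2.91% and 2.74%).

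Leaving out all 4 arrays numbered 3, a setting chosen after they were seen to stand apart, gave 6 of 35 members in each oxygen comparison. With inhibitor, Atf3 and Ppp1r15a were higher (5.47% of all genes) and Chac1, Asns, Phgdh and Atf5 were lower (5.59%). Their changes were 0.89, 0.52, -0.88, -0.39, -1.02 and -0.64, with adjusted p of 0.0334 or less. Without inhibitor, Atf3, Ppp1r15a, Shmt2, Pdia6 and Dnajc3 (an ER co-chaperone that restrains PERK) were higher (4.69%) and Chac1 was lower by this test at -0.90 (4.76%, adjusted p = 0.00694). These fits rest on 2 arrays a group. With all arrays, each weighted by how well it fitted its group, Atf3 and Ppp1r15a passed with inhibitor (2 of 35 members, 5.71%). There, 4.61% of all genes were called higher and 4.03% lower. Without inhibitor Pdia6, Atf3, Ppp1r15a and Shmt2 passed (4 of 35, 11.4%), where 4.67% of all genes were called higher and 4.26% lower.

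**Figure D5:**
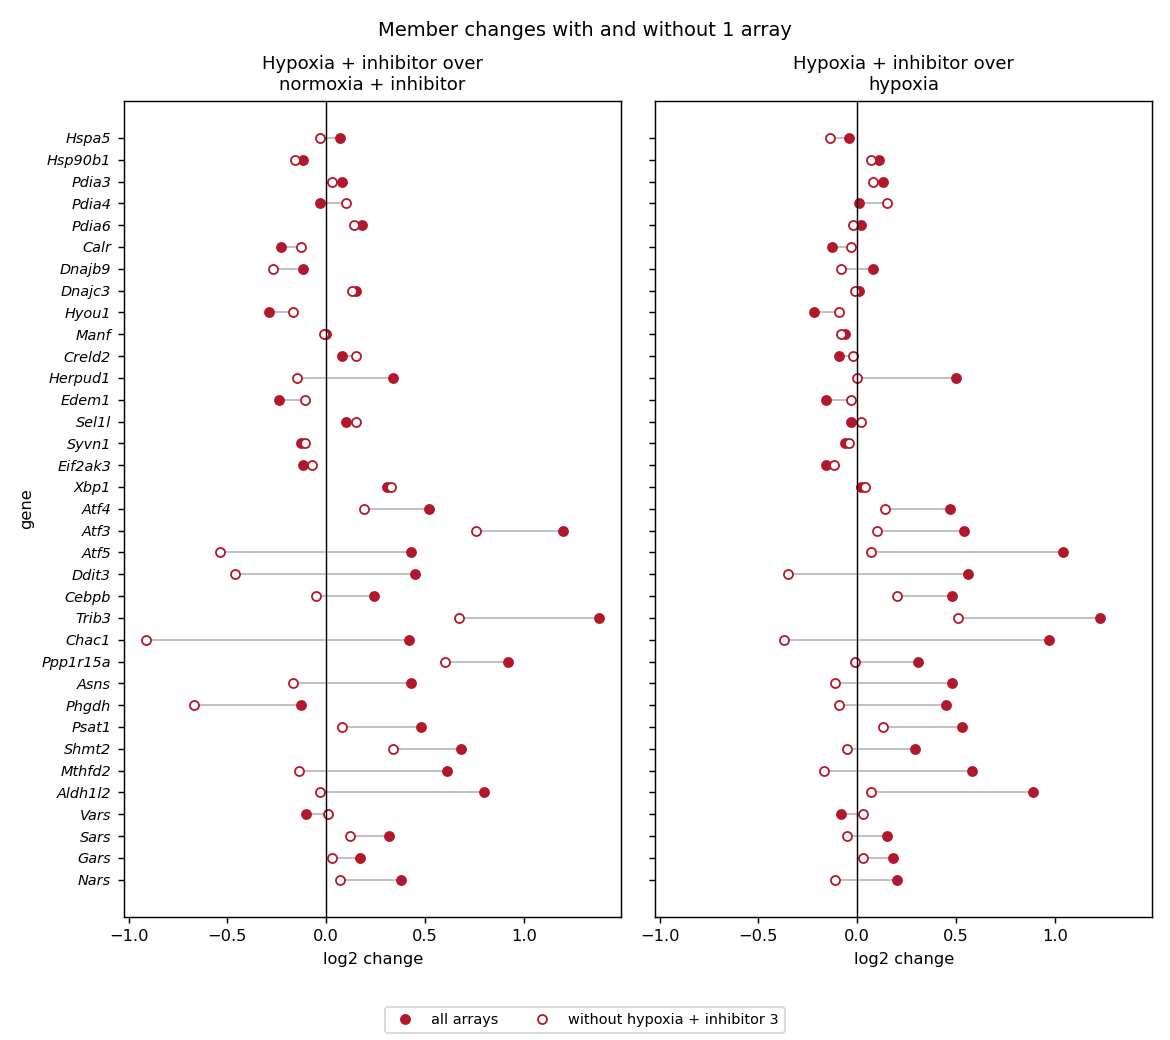
Log2 change of each measured member with all arrays (filled) and without replicate 3 of hypoxia + inhibitor (open), for hypoxia + inhibitor over normoxia + inhibitor on the left and over hypoxia on the right. Chac1 crosses 0 in both panels (0.42 and -0.91, 0.97 and -0.37).

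The plot of changes with and without the array shows the members by role. For the inhibitor in hypoxia, all 8 ATF4-related factors and all 6 amino acid enzymes were positive with all arrays, against 5 of 8 and 2 of 6 without replicate 3, and 0 passed either way. For the inhibitor in normoxia, which that array does not enter, 6 of 8 and 3 of 6 were positive, with the largest member changes at 0.34 for Phgdh, 0.30 for Cebpb, 0.29 for Atf5 and 0.26 for Edem1.

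Further genes of the same pathways were counted from lists beside the members. Of 30 further ATF4 target and stress response genes 23 were measured. In hypoxia with inhibitor against normoxia with inhibitor 1 rose and 0 fell (median 0.26, and 0.04 without replicate 3 of hypoxia with inhibitor), and in hypoxia against normoxia 0 passed (median 0.02). The gene that rose was Stc2 (stanniocalcin 2), with 8.18, 8.14 and 9.21 in hypoxia with inhibitor and 7.30, 7.42 and 6.67 in normoxia with inhibitor, a change of 1.38 (SE 0.27, adjusted p = 0.0449), and 1.03 (adjusted p = 0.0382) without replicate 3 of hypoxia with inhibitor. Without inhibitor Stc2 had 1.29 (SE 0.27, adjusted p = 0.0519), and Vldlr, a lipoprotein receptor, had 1.54 with inhibitor and 1.25 without (adjusted p = 0.0718 and 0.147). In the fit without that array both passed in hypoxia against normoxia (adjusted p = 0.00682 for Stc2 and 0.0221 for Vldlr). For the inhibitor 0 passed in hypoxia (median 0.29, led by Nupr1 at 1.20 and Slc1a4 at 1.00) and 0 in normoxia (median -0.02). Without that array the median in hypoxia was 0.01, with Nupr1 at 0.25 and Slc1a4 at 0.41.

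Of 25 further ER folding and translocation genes 21 were measured, and 0 passed in any comparison. Their medians were 0.06 and 0.11 with oxygen and 0.02 and 0.03 with the inhibitor. The largest oxygen changes were those of P4hb, the disulfide isomerase PDI that is also a subunit of collagen prolyl hydroxylase (0.42 with inhibitor, 0.45 without), and Pdia5 (0.35 and 0.46), with adjusted p of 0.109 or more. Of 24 further degradation and ER stress genes 17 were measured and 0 passed (medians 0.06 and 0.02 with oxygen, 0.01 and 0.05 with the inhibitor), Wfs1 having the largest change at 0.63 with inhibitor (adjusted p = 0.152).

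Of 16 further tRNA synthetases 15 were measured and 0 passed (medians 0.14 and 0 with oxygen, 0.08 and 0.03 with the inhibitor), and 10 of the 15 were highest on replicate 3 of hypoxia with inhibitor (66.7%, against 19.1% of all genes). Without that array the medians were -0.02 for oxygen with inhibitor and -0.02 for the inhibitor in hypoxia. Of 20 cytosolic and mitochondrial heat shock genes 17 were measured and 0 passed (medians -0.03 and -0.04 with oxygen, 0.09 and -0.04 with the inhibitor). Of the 17, 9 were highest on that array (52.9%). Without it the median for the inhibitor in hypoxia was -0.03. The largest heat shock deviation there was that of Hspa1a, an inducible HSP70, at 6.02 with mates at 4.83 and 4.76, both below the lowest signal detected on their arrays (5.19).

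The genes outside the list with signals most like those of Trib3 over the 12 arrays were Nupr1 (Pearson r 0.965), Mras (0.945), Cxcl1 (0.942), Tbrg1 (0.935) and Slc1a4 (0.929). Without replicate 3 of hypoxia with inhibitor the r values were 0.829, 0.86, 0.828, 0.822 and 0.639. Those most like Hspa5 were Rad1 (0.883), Btg4 (0.823), Ddx39a (0.786), Snx5 (0.786) and Pgrmc1 (0.779), and all of these had r of 0.733 or more without the array. These correlations describe 12 arrays that share their groups and the offset of the arrays numbered 3.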

How the data were processed

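The deposited table holds, per the file headers, an intensity and a detection p-value for each probe on each of 12 arrays. The authors' intensity is linear, and 23.3% of the values are below 0, so background had been subtracted before deposit. The submitters' processing notes name BeadStudio without a version. The authors' processed intensity table, floored at 20, served only as an alternative.

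Background was corrected by limma 3.58.1 (R 4.3.3) with the normal-exponential model from the detection p-value (offset 16), then arrays were quantile normalized and taken to log2. The offset compresses changes of dim probes. Of 25697 probes, 23978 have 1 symbol in the platform annotation, 0 several and 1719 none. Probes detected (p-value under 0.05) on at least 3 arrays were kept, 14599 in all, and a gene is its brightest kept probe. Each probe was fitted as 4 group means (8 residual degrees of freedom, two-sided moderated tests, Benjamini-Hochberg over all kept probes, threshold 0.05). Arrays have no read depth, and their number limits the precision. Figures used Python 3.11.15 and matplotlib 3.10.9.

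Same-numbered arrays were checked for pairing by correlating their deviations from the group means: 0.11 to 0.25 between hypoxia with inhibitor and normoxia with inhibitor, 0.30 to 0.58 between hypoxia and normoxia, 0.38 to 0.64 between normoxia with inhibitor and normoxia, and 0.03 to 0.08 between hypoxia with inhibitor and hypoxia. By a working rule, pairing was held possible where each correlation was over 0.1, which leaves out the last comparison. The main tests used no pairing in any comparison. The replicate block was an alternative, applied to all comparisons alike. The check cannot establish pairing, because deviations from a group mean cancel out within the group. An offset shared by the last-numbered arrays therefore also enters the correlations of their group mates. What arrays of one number have in common is not stated in the labels. No 2 arrays of a group had identical values.

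Values by array are given for a panel (Hspa5, Hsp90b1, Xbp1, Herpud1, Ero1l, Atf4, Ddit3, Trib3, Chac1, Asns and Psat1), for members that pass and for the 4 largest changes of each comparison of groups; Ero1l had no named probe. Of each further list up to 4 members with the largest changes may be named. Members and lists were chosen with earlier results of these data known.

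Alternatives were the replicate block, the detection filter, the offset, median scaling, the processed table, array weights, only the groups compared, the mean of kept probes, leaving out each array, and leaving out all arrays numbered 3.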

Additional observations from a re-analysis of the deposited data

Results flagged for a closer look

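Calr, which encodes calreticulin, had oxygen changes of opposite sign at the 2 inhibitor settings. All 3 arrays of hypoxia with inhibitor lay below all 3 of normoxia with inhibitor (-0.23 on the log2 scale), and all 3 of hypoxia lay above all 3 of normoxia (0.09). The interaction was -0.31 (SE 0.15, limma adjusted p = 1), so the difference between the settings did not pass its own test. The lowest Calr array was replicate 3 of hypoxia with inhibitor, at 10.27, and without it the interaction was -0.21.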

How the results depend on the processing

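With all arrays 0 members passed in each comparison. Counts of members passing in hypoxia with inhibitor against normoxia with inhibitor were 1 with the replicate block and 2 with array weights. The 1 was Atf3, and that the numbers pair the samples was not established. The counts were 0 to 2 leaving out each array and 6 without the arrays numbered 3. In hypoxia against normoxia they were 4 with array weights, 0 to 2 leaving out each array and 6 without the arrays numbered 3. With array weights 4.61% of all genes were called higher and 4.03% lower in the first comparison, and 4.67% and 4.26% in the second. Without the arrays numbered 3 these shares were 5.47% and 5.59%, and 4.69% and 4.76%. Without replicate 3 of hypoxia with inhibitor they were 1.38% and 0.648%, and 1.64% and 0.921%. The replicate block gave 1.08% and 0.941% in the first comparison. With all arrays the shares were 0.536% and 0.506%, and 0.688% and 0.466%. In both comparisons, the array behind the count of 2 is replicate 3 of hypoxia with inhibitor. The replicate block changed no other call, and every other alternative kept 0, as did the inhibitor comparisons and the interaction under all. Median member changes with array weights were 0.01 (hypoxia with inhibitor against normoxia with inhibitor), 0 (inhibitor in hypoxia) and -0.09 (interaction), and without the arrays numbered 3 they were -0.08, -0.02 and -0.15. Leaving out each array gave -0.01 to 0.25, -0.02 to 0.25 and -0.09 to 0.29, and replicate 3 of hypoxia with inhibitor gave each low end. Single members that changed sign were all outside the threshold with all arrays. With array weights, hypoxia with inhibitor against normoxia with inhibitor gave -0.01 for Hspa5, -0.45 for Ddit3, -0.65 for Chac1, -0.22 for Asns and -0.42 for Atf5, the inhibitor in hypoxia gave -0.13 for Chac1, -0.06 for Xbp1, -0.25 for Ddit3 and -0.04 for Asns, and hypoxia against normoxia gave -0.04 for Psat1. The mean of kept probes gave -0.03 for Ddit3 in hypoxia against normoxia, and Hspa5 for the inhibitor in hypoxia was 0.01 with median scaling and 0 in the processed table. Leaving out each array, hypoxia with inhibitor against normoxia with inhibitor spanned -0.03 to 1.28 for Aldh1l2 (-0.20 without the arrays numbered 3), -0.03 to 0.24 for Hspa5 (-0.11), -0.15 to 0.62 for Herpud1, -0.46 to 1.03 for Ddit3 (-0.61), -0.91 to 1.14 for Chac1, -0.17 to 0.73 for Asns (-0.39), -0.54 to 0.92 for Atf5 (-0.64) and -0.67 to 0.20 for Phgdh (-1.02). Hypoxia against normoxia spanned -0.04 to 0.22 for Ddit3, -0.19 to 0.01 for Asns and -0.05 to 0.06 for Psat1 (-0.06). The inhibitor in hypoxia spanned -0.37 to 1.68 for Chac1 (-0.43), -0.17 to 0.13 for Hspa5, -0.14 to 0.13 for Xbp1, 0.14 to 0.82 for Atf4 (-0.10), -0.35 to 1.14 for Ddit3 (-0.41) and -0.11 to 0.79 for Asns (-0.19), and the inhibitor in normoxia -0.03 to 0.69 for Phgdh. Apart from the ends given by that array, the cause was not tested. With 3 arrays a group and dim probes for Trib3 and Aldh1l2, small changes are not resolved.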
